A study of Homo sapiens with 6 samples.

Results

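The laminin chains were the genes LAMA1, LAMA2, LAMA3, LAMA4, LAMA5, LAMB1, LAMB2, LAMB3 and LAMC1, chosen by symbol, and all 9 were found among the 58735 genes of the deposited table. RNA was sequenced from ARPE-19, an established line of human retinal pigment epithelial cells. The OE_CD51_ICD group comprised 3 libraries of cells overexpressing a construct labelled CD51_ICD, where CD51 is the integrin alpha V subunit encoded by ITGAV. The NC group comprised 3 libraries of control cells, labelled wild type. The labels name neither the vector nor the promoter of the construct, and do not say whether libraries came from separate cultures or clones, so each p-value reflects the spread among the libraries alone, and that spread may be technical. The series title places the work on microglia, integrin alpha V, epithelial-mesenchymal transition and dry macular degeneration.

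Laminins are secreted, cross-shaped proteins built of an alpha, a beta and a gamma chain wound together in a coiled coil, and they are named by the numbers of those chains. They polymerise at the cell surface and start the assembly of basement membranes, and cells hold on to them through integrins and dystroglycan, which bind the end of the alpha chain. In the eye they are part of Bruch's membrane, the layered sheet on which the retinal pigment epithelium rests. The chains of a trimer join inside the endoplasmic reticulum before secretion, so a trimer can form only where a cell makes all of its chains.

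The sequences just upstream of the gene starts are shown for LAMB1 and LAMC1, chosen because they were higher in OE_CD51_ICD, and for LAMB2 and LAMA3, chosen because they were lower. Each is the 250 bases before the RefSeq gene start on GRCh38.p14, written 5′ to 3′ on the gene's own strand. Capitals mark every match, on either strand, to the GC box GGGCGG or to the AP-1 site TGANTCA.
LAMB1 (chr7:108003162-108003411, minus strand): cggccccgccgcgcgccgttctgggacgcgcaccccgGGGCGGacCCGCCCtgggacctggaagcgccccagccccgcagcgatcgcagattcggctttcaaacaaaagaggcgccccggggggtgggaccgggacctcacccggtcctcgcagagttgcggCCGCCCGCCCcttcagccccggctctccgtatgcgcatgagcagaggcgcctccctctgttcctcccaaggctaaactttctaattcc
LAMC1 (chr1:183023170-183023419, plus strand): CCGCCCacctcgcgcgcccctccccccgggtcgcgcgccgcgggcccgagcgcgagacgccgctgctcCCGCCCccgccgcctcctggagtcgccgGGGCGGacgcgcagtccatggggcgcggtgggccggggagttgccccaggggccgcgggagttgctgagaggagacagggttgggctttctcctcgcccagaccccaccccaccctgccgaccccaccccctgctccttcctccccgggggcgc
LAMB2 (chr3:49133051-49133300, minus strand): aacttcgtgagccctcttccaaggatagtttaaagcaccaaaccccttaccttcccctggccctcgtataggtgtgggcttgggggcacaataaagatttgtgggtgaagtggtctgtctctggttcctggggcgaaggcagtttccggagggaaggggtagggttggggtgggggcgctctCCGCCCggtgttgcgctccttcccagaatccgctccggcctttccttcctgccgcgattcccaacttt
LAMA3 (chr18:23872770-23873019, plus strand): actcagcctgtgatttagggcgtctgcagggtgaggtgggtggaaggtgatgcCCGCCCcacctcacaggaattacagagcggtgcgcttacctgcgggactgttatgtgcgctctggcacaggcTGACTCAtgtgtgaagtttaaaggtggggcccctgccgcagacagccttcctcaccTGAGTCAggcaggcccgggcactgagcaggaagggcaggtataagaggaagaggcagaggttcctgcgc

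RefSeq windows of 300 bases, the 250 bases before the gene start and 50 bases after it, were found for 8 of the 9 members. GC boxes numbered 4 in the LAMB1 window, 3 in that of LAMC1 and 5 in that of LAMA5, the members that were higher in OE_CD51_ICD. The windows of LAMB2, LAMB3 and LAMA3, which were lower, held 1 each, and those of LAMA4 and LAMA2 held 0. In LAMB1 a pair of the matches overlap, 88 and 84 bases before the start. LAMB3 had 3 windows, of which only the most upstream was used. Of all 35116 windows of this length, 45.0% held at least 1 GC box, and the share with 3 or more was not counted. GC content was 71.0% in LAMB1, 79.0% in LAMC1, 82.7% in LAMA5, 58.7% in LAMB2, 61.3% in LAMB3 and 61.7% in LAMA3. The median over all windows was 58.7%. The members with 3 or more boxes were also those richest in GC. Whether box number bears on the change in level was not tested. AP-1 sites were found 125 and 69 bases before the LAMA3 start and in no other member's window, against 7.71% of all windows with at least 1. The printed bases of LAMA3 lie wholly inside the gene as the count table annotates it, before an internal start. The last 94 printed bases of LAMB1 and the last 68 of LAMB2 also lie inside the annotated gene, with the overlapping LAMB1 matches and the LAMB2 match among them, and those of LAMC1 lie outside it. The TATA box letters TATAAA were in none of the 8 windows and in 11.5% of all windows. A match of letters is not a binding site, and the letters were read from the reference genome.

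Total counts were 13616694 to 16934668 per library. ITGAV averaged 448 ± 83.5 CPM, counts scaled to a common library size with TMM factors, in OE_CD51_ICD and 98.4 ± 12.9 CPM in NC (SD, n = 3 each), and reads of the construct and of the endogenous gene are counted together. Of 9 RPE markers, KRT8 and KRT18 made up most of a summed level of 4622 to 5347 CPM in OE_CD51_ICD and 5155 to 5612 CPM in NC, RPE65 was at 0 in all libraries, and BEST1 and TYR had fewer than 1 CPM on average in both groups. OTX2 averaged 28.9 ± 3.12 CPM in OE_CD51_ICD and 27.8 ± 2.63 CPM in NC and did not pass the test. PMEL was higher, at 15.6 ± 1.09 CPM in OE_CD51_ICD and 8.93 ± 1.99 CPM in NC, as was RLBP1, at 3.32 ± 0.433 and 1.91 ± 0.350 CPM, while MITF was lower, at 18.0 ± 4.27 and 26.6 ± 2.39 CPM (edgeR, SD, n = 3 each). The part of these markers in the laminin results was not tested. Fibroblast markers summed to 374 to 415 CPM in OE_CD51_ICD and 213 to 238 CPM in NC, nearly all of it PDGFRB, and DCN was at 0. Macrophage and microglia markers summed to 30.5 to 37.0 CPM in OE_CD51_ICD and 2.57 to 4.18 CPM in NC, nearly all of it CSF1R, with PTPRC at 1 and 0 counts over the groups and P2RY12 at 0. Endothelial markers summed to 0.572 to 1.57 CPM in OE_CD51_ICD and 2.14 to 2.83 CPM in NC, made up mainly of VWF, with 12 counts over OE_CD51_ICD and 47 over NC, and KDR, with 29 and 61 counts, which was called lower (adjusted p = 0.0484, edgeR). PECAM1 and CDH5 had no count in OE_CD51_ICD and 4 and 3 counts over NC.

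In cells overexpressing CD51_ICD, the laminin chains LAMB1, LAMC1 and LAMA5 rose, LAMB2, LAMB3 and LAMA3 fell, and LAMA4 did not pass the test. LAMB1 rose most, 2.55-fold, while LAMB2, which remained the most abundant chain in both groups, fell to 0.778 of its NC level. Genes were tested with edgeR's quasi-likelihood test across 13787 genes and called at a Benjamini-Hochberg adjusted p under 0.05. Of all genes tested, 51.0% were called, 25.2% higher and 25.8% lower. Of the 9 chains, 7 passed the low-count filter, of which 3 were higher and 3 lower. The median log2 fold change of the 7 was 0.07, beside 0.01 over all genes tested. TMM-scaled levels did not overlap between groups in 6 of the 7, and in 57.5% of all genes. With about as many genes called as not, a call on its own sets no chain apart from the rest of the transcriptome.

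**Figure D1:**
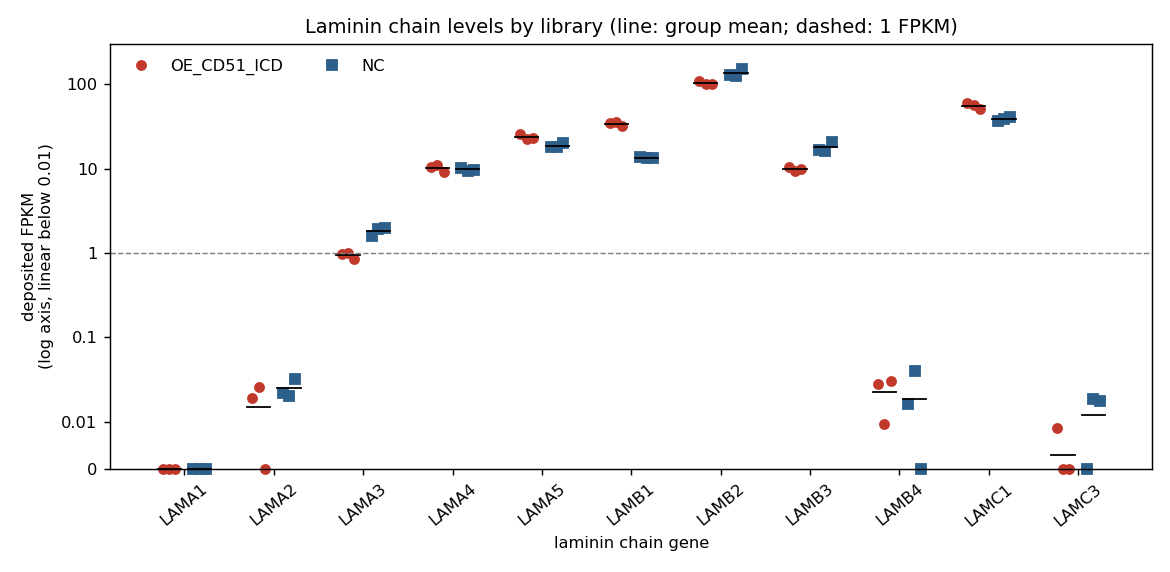
Deposited FPKM of 11 laminin chain genes in each library, on an axis that is logarithmic above 0.01 FPKM and linear below it, with OE_CD51_ICD as circles, NC as squares and a line at each group mean. LAMB2 is highest in both groups, LAMB1 averages 33.9 FPKM in OE_CD51_ICD and 13.4 FPKM in NC, and LAMA1 is at 0 in all 6 libraries.

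LAMC1 encodes the gamma chain of most laminins and is required for the earliest basement membranes of the mouse embryo (chromosome 1, 183023460 to 183145592, GRCh38). Its levels were 503, 491 and 423 CPM in the OE_CD51_ICD libraries, against 315, 328 and 342 CPM in the NC libraries. All OE_CD51_ICD libraries lay above all NC libraries, and replicate 3 of OE_CD51_ICD was the lowest of its group. The log2 fold change was 0.52 ± 0.08 SE (adjusted p = 3.05e-06, edgeR). The antisense gene LAMC1-AS1, within the LAMC1 locus, had 9 counts over OE_CD51_ICD and 7 over NC. The protein-coding genes whose profile over the 6 libraries lay nearest to LAMC1 were TULP3, RTN2 and KPNA1. Their root mean square differences from LAMC1 in gene-centred log2 CPM were 0.036, 0.040 and 0.041. TULP3 averaged 44.7 CPM in OE_CD51_ICD and 31.4 CPM in NC, RTN2 34.2 and 24.1 CPM, and KPNA1 46.6 and 34.0 CPM in the same order of groups. These genes were chosen for their likeness to LAMC1, so their difference between groups follows from that choice. The KPNA1 call was lost with the GC trend removed (adjusted p = 0.0627, edgeR; 4.92e-05 to 0.0627 over its alternatives).

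LAMB1 encodes a beta chain that is widespread in embryonic and vascular basement membranes (chromosome 7, 107923799 to 108003255). It stood at 282, 296 and 260 CPM in the OE_CD51_ICD libraries, against 112, 109 and 108 CPM in the NC libraries. The NC libraries were close to each other and the lowest OE_CD51_ICD library was far above the highest of them. The log2 fold change was 1.35 ± 0.08 SE (adjusted p = 1.45e-14, edgeR), and over 19 alternative settings it ranged between 1.20 and 1.41. A change of at least 2-fold was called in 12.7% of all genes, and among the 9 members LAMB1 alone passed that mark. DLD, a protein-coding gene on the opposite strand that overlaps LAMB1, had 944 counts over OE_CD51_ICD and 904 over NC and did not pass the test.

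LAMB2 encodes the beta chain known from the kidney glomerulus, the neuromuscular junction and the retina (chromosome 3, 49121114 to 49133118). It had 764, 709 and 698 CPM in the OE_CD51_ICD libraries, against 884, 875 and 1032 CPM in the NC libraries. Groups did not overlap, and the NC group was the more spread because of its replicate 3. LAMB2 fell by 0.36 on the log2 scale (SE 0.08, adjusted p = 4.24e-04, edgeR). With each library's trend with GC content removed, the log2 fold change was -0.16 and the call was lost (adjusted p = 0.0641, edgeR; 3.08e-05 to 0.0641 over its alternatives).

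LAMB3 encodes the beta chain of laminin-332, the anchoring laminin of skin and other stratified epithelia (chromosome 1, 209614870 to 209652466). Levels were 49.0, 45.6 and 47.1 CPM in the OE_CD51_ICD libraries, against 79.7, 75.8 and 97.3 CPM in the NC libraries. The OE_CD51_ICD libraries were within a narrow band below all of NC. LAMB3 fell by 0.83 on the log2 scale (SE 0.10, adjusted p = 2.49e-08, edgeR).

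LAMA5 encodes the alpha chain of laminin-511 and laminin-521, which are major laminins of adult epithelial basement membranes (chromosome 20, 62307955 to 62367312). Its levels were 367, 330 and 327 CPM in the OE_CD51_ICD libraries, against 263, 257 and 286 CPM in the NC libraries. The groups did not overlap, and the log2 fold change was 0.34 ± 0.08 SE (adjusted p = 6.09e-04, edgeR). With each library's trend with gene length removed its log2 fold change was 0.05 and the call was lost (adjusted p = 0.679, edgeR; 7.08e-07 to 0.679 over its alternatives). ADRM1, on the opposite strand and overlapping LAMA5, had 5143 counts over OE_CD51_ICD and 7075 over NC. Whether counting used strand is not given in the sources used here. Reads in the stretches shared with ADRM1 or with DLD cannot be assigned.

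LAMA4 encodes the truncated alpha chain of laminin-411 and laminin-421, found in vessels, muscle and fat (chromosome 6, 112108760 to 112254939). It had 121, 131 and 106 CPM in the OE_CD51_ICD libraries, against 120, 110 and 111 CPM in the NC libraries. The ranges overlapped, with an OE_CD51_ICD library below all NC libraries. Its log2 fold change was 0.07 with a 95% interval of -0.11 to 0.24 (adjusted p = 0.556, edgeR), and it turned to -0.08 with the GC trend removed and to -0.18 with the gene length trend removed, past the threshold in neither.

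LAMA3 encodes the alpha chain of laminin-332 and also of laminin-311 and laminin-321 (chromosome 18, 23689443 to 23956222). Its levels were 14.5, 15.0 and 12.4 CPM in the OE_CD51_ICD libraries, against 23.6, 28.5 and 28.9 CPM in the NC libraries. The highest OE_CD51_ICD library was well below the lowest NC library. LAMA3 fell by 0.95 on the log2 scale (SE 0.13, adjusted p = 4.97e-07, edgeR). Gene counts add up its long and short transcripts, which differ in the arm of the alpha chain.

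LAMA1, the alpha chain of laminin-111 in early embryos, had no count in any library. A count of 0 over a group allows up to 3 counts, or 0.0685 CPM in OE_CD51_ICD and 0.0649 CPM in NC, by counting error only. LAMA2, the alpha chain of muscle and peripheral nerve, had 3, 4 and 0 counts in the OE_CD51_ICD libraries, against 4, 3 and 5 in the NC libraries. Neither was tested, and for LAMA2 a difference was not detectable at this depth.

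**Figure D2:**
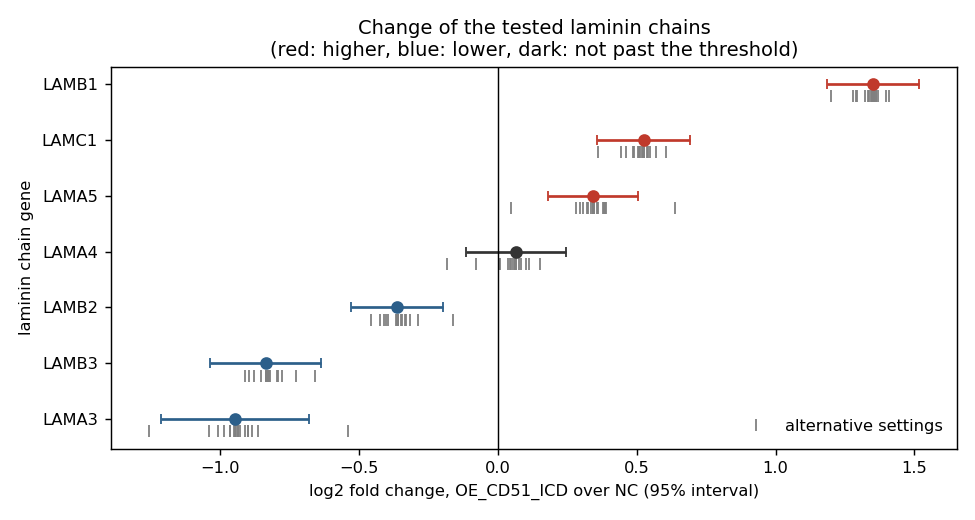
Log2 fold change of OE_CD51_ICD over NC for each laminin chain tested, with its 95% interval, and as grey ticks the values under the alternative settings. LAMB1 lies highest at 1.35 and LAMA3 lowest at -0.95, and the ticks of LAMA5 and LAMB2 reach nearest to 0 among the called members, at 0.05 and -0.16.

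Of genes outside the 9, LAMB4, a further beta chain, had 7 counts over OE_CD51_ICD and 6 over NC, LAMC3, a gamma chain, had 1 and 4, and neither was tested.

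Chains were set side by side in the authors' FPKM, which is per length. In OE_CD51_ICD the order was LAMB2 at 104 ± 5.40, LAMC1 at 55.5 ± 4.70, LAMB1 at 33.9 ± 1.86, LAMA5 at 23.6 ± 1.61, LAMA4 at 10.2 ± 0.968, LAMB3 at 9.95 ± 0.454 and LAMA3 at 0.941 ± 0.0823 FPKM (SD, n = 3). In NC it was LAMB2 at 135 ± 13.2, LAMC1 at 38.8 ± 1.70, LAMA5 at 18.7 ± 1.14, LAMB3 at 17.9 ± 2.48, LAMB1 at 13.4 ± 0.215, LAMA4 at 9.76 ± 0.457 and LAMA3 at 1.83 ± 0.204 FPKM (SD, n = 3). LAMB1 thus stood above LAMA5 in OE_CD51_ICD and below it in NC, also with the longest coding transcript as gene length, a setting chosen after seeing the data. It stood above LAMB3 in OE_CD51_ICD and below it in NC by deposited length, but with the longest coding transcript the ratio of LAMB1 to LAMB3 in the NC libraries was 1.05, 1.07 and 0.827. Neighbours whose libraries overlapped were LAMA4 and LAMB3 in OE_CD51_ICD, and LAMA5 and LAMB3 in NC.

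Within the beta class, LAMB1 made up 22.9% ± 1.27 of summed FPKM in OE_CD51_ICD and 8.10% ± 0.802 in NC (SD, n = 3 each). LAMB2 made up 70.4% ± 1.08 in OE_CD51_ICD and 81.1% ± 0.419 in NC, and LAMB3 6.73% ± 0.243 and 10.7% ± 0.482 in the same order of groups. The ratio of LAMB2 to LAMB1 was 3.21, 2.84 and 3.19 in the OE_CD51_ICD libraries, against 9.38, 9.52 and 11.4 in the NC libraries. The 2 sets of ratios did not overlap. These shares and ratios were computed with the deposited lengths only. Among alpha chains, LAMA5 held 68.0% ± 2.45 in OE_CD51_ICD and 61.6% ± 1.47 in NC, LAMA4 29.3% ± 2.26 and 32.2% ± 1.86, and LAMA3 2.71% ± 0.161 and 6.03% ± 0.678.

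**Figure D3:**
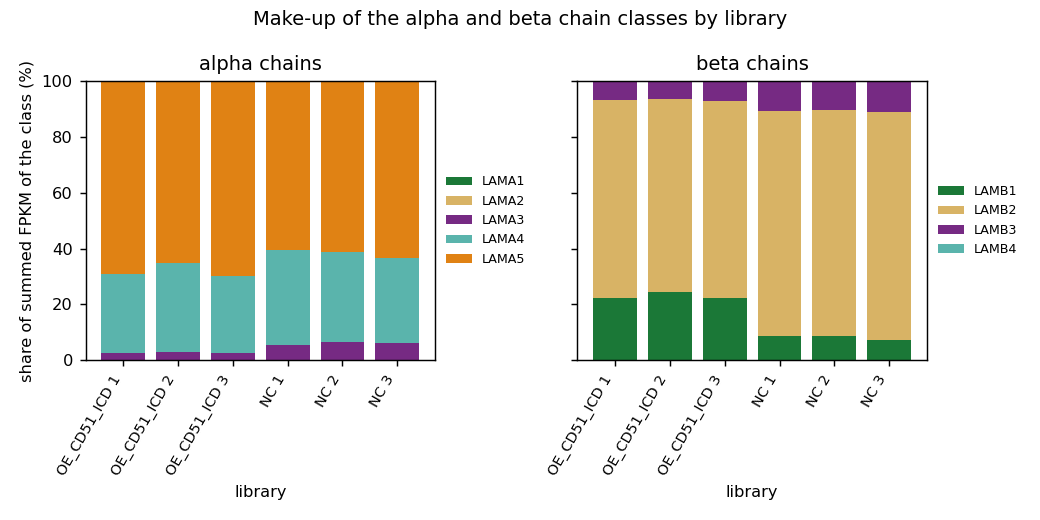
Share of each chain in the summed FPKM of the alpha and beta classes, 1 stacked bar per library. The LAMB1 share is 22.1% to 24.4% in the OE_CD51_ICD libraries and 7.18% to 8.61% in the NC libraries, and LAMA5 is the main alpha chain in all 6 libraries.

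Of the chain combinations described as laminin trimers, 13 were considered, and each was given the level of its lowest chain, per library, as the ceiling that transcript levels would set if chains were made and joined in equal numbers. A chain was taken as present where it had at least 1 FPKM in every library of a group, which held for 6 of 11 chains in OE_CD51_ICD and 7 in NC. All chains of laminin-411, laminin-421, laminin-511 and laminin-521 were present in both groups. The complete trimers numbered 4 in OE_CD51_ICD and 6 in NC, the difference being laminin-311 and laminin-321, whose LAMA3 was at 0.978, 0.998 and 0.846 FPKM in OE_CD51_ICD and 1.59, 1.93 and 1.96 FPKM in NC. LAMA3 was thus just under the mark in OE_CD51_ICD, and that count was 6 in both groups with a mark of 0.5 FPKM. With marks of 2 and 5 FPKM it was 4 in both groups, so the difference between groups rests on LAMA3 and on the mark. The count was also 6 in both groups with the longest coding transcript as gene length, under which LAMA3 had 1.35, 1.37 and 1.17 FPKM in OE_CD51_ICD. Transcript levels do not show which proteins were assembled or secreted.

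The lowest chain of laminin-511 was LAMA5 in every OE_CD51_ICD library and LAMB1 in every NC library. Its ceiling was 25.4, 22.5 and 22.8 FPKM in OE_CD51_ICD, against 13.6, 13.3 and 13.2 FPKM in NC. The ceiling of laminin-521, set by LAMA5 in all libraries, was 23.6 ± 1.61 FPKM in OE_CD51_ICD and 18.7 ± 1.14 FPKM in NC (SD, n = 3 each). The same chains were lowest when the longest coding transcript was used as length, which rescales both groups alike. With the gene length trend removed, the LAMA5 log2 fold change was 0.05 and its call was lost. The ceilings were not recomputed under that setting. LAMA5 is shared by both trimers, so their ceilings do not add up. LAMA4 was lowest in laminin-411 and laminin-421, at 10.2 ± 0.968 FPKM in OE_CD51_ICD and 9.76 ± 0.457 FPKM in NC, with overlapping libraries.

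By deposited length, LAMB3 stood 10.6 ± 1.17 times above LAMA3 in OE_CD51_ICD and 9.82 ± 1.29 times above it in NC (SD, n = 3 each), and both chains fell. The deposited length was 1.09 times the longest coding transcript for LAMB3 and 1.38 times for LAMA3. This ratio was not recomputed with that length. Gene counts do not tell which LAMA3 transcripts were present, and a shorter length would raise LAMA3 FPKM. The trimers that need LAMA1, LAMA2 or LAMC3 had ceilings of at most 0.033 FPKM in any library.

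Summed alpha FPKM was 34.7 ± 2.02 in OE_CD51_ICD and 30.3 ± 1.18 in NC, and LAMC1 exceeded that sum 1.60 ± 0.060 times in OE_CD51_ICD and 1.28 ± 0.046 times in NC (SD, n = 3 each). LAMB1 and LAMB2 together exceeded LAMC1 2.50 ± 0.141 times in OE_CD51_ICD and 3.81 ± 0.207 times in NC. LAMC1 was thus below the pair of beta chains in both groups. Its place against the alpha chains depended on the length used, since with the longest coding transcript LAMC1 was 1.21 ± 0.038 times their sum in OE_CD51_ICD and 0.957 ± 0.038 times in NC.

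**Figure D4:**
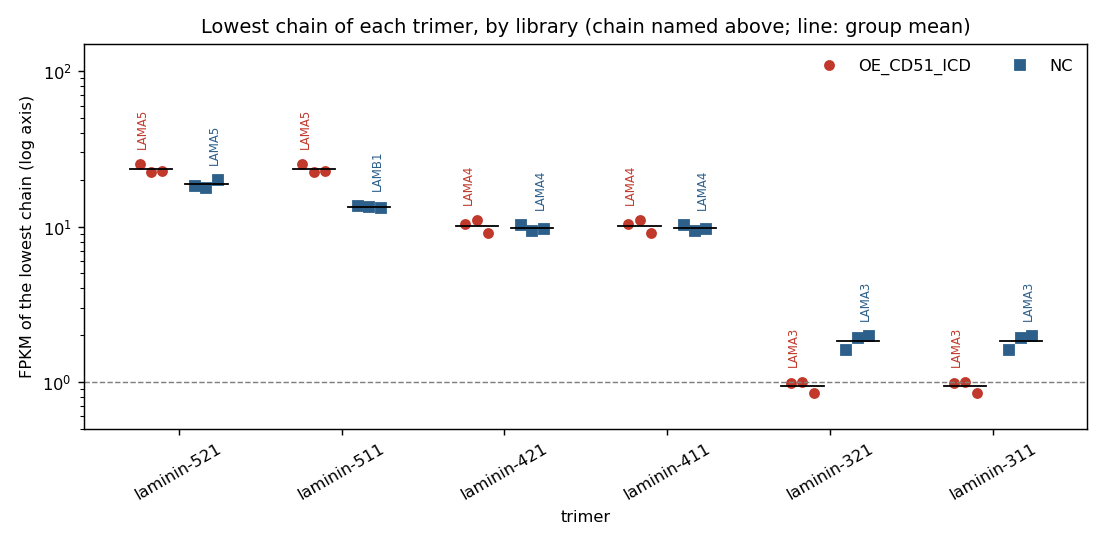
FPKM of the lowest chain of each trimer with a ceiling above 0.1 FPKM in NC, per library on a log axis, with that chain named above the points and a dashed line at 1 FPKM. For laminin-511 the OE_CD51_ICD libraries lie between 22.5 and 25.4 FPKM with LAMA5 lowest, against 13.2 to 13.6 FPKM in NC with LAMB1 lowest.

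Genes for laminin receptors or associated proteins moved both ways, with 8 of 17 higher, 7 lower and 2 not past the threshold. Of all genes tested, 25.2% were called higher and 25.8% lower. The median log2 fold change of the list was -0.04. CD151, SGCB and SGCE were among its higher genes and RPSA among its lower ones. ITGA2 and ITGA1, the alpha subunits of the collagen and laminin receptors, averaged 3.06 ± 1.12 and 36.6 ± 4.53 CPM in OE_CD51_ICD, against 0.284 ± 0.0533 and 11.6 ± 1.80 CPM in NC. ITGA6, whose product binds laminins with ITGB1 or ITGB4, averaged 52.2 ± 3.0 CPM in OE_CD51_ICD and 31.5 ± 0.930 CPM in NC. ITGB4 was called lower, at 140 CPM in OE_CD51_ICD and 160 CPM in NC (log2 -0.19, adjusted p = 0.0419, edgeR). BCAM was also called lower, at 85.4 CPM in OE_CD51_ICD and 122 CPM in NC (log2 -0.51, adjusted p = 8.82e-06, edgeR). The ITGB4 and BCAM calls were not followed over the alternatives. ITGB1, the common beta subunit, and the proteoglycan gene SDC2 had log2 fold changes of 1.52 and 0.78. ITGA7, a laminin receptor subunit of muscle, and SDC4 fell by 0.86 and 0.57 on the log2 scale. ITGA3, a receptor subunit for laminin-332, laminin-511 and laminin-521, stood at 2256 ± 265 CPM in OE_CD51_ICD and 2352 ± 174 CPM in NC and did not pass the test. With the gene length trend removed, ITGA3 was lower (log2 -0.26, adjusted p = 0.0257, edgeR; 0.0257 to 0.968 over its alternatives). DAG1, dystroglycan, stood at 459 ± 18.8 CPM in OE_CD51_ICD and 471 ± 19.0 CPM in NC and did not pass the test.

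Dystroglycan binds laminin only through a sugar chain made by a set of glycosyltransferases. Of the 10 genes tested out of 11 considered from that pathway, 2 rose, 3 fell and 5 did not pass. Over all genes tested, 25.2% were called higher and 25.8% lower. The median log2 fold change of the 10 was -0.04. POMT2 and POMT1 encode the enzymes that add the first mannose. POMT2 averaged 59.0 ± 4.93 CPM in OE_CD51_ICD and 47.3 ± 0.903 CPM in NC, and POMT1 53.1 ± 1.49 CPM in OE_CD51_ICD and 62.0 ± 4.72 CPM in NC (SD, n = 3 each). B3GALNT2 had a log2 fold change of 0.49, and POMGNT2 and POMGNT1 fell by 0.64 and 0.38 on the log2 scale. B3GALNT2 lost its call under 8 of 19 alternatives, POMT1 under 13 and POMT2 under 1.

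Among the partners with which laminins build basement membranes, 11 of the 19 genes tested rose, 2 fell and 6 did not pass, out of 23 listed. Over all genes tested, 25.2% were called higher and 25.8% lower. The median log2 fold change was 0.78, beside 0.01 over all genes tested. The list was chosen with earlier results of these data known. Its counts and median thus describe the listed genes only and are no test. NID1 and NID2 encode nidogens, which link the short arm of the gamma chain to collagen IV. NID1 averaged 51.9 ± 4.13 CPM in OE_CD51_ICD and 34.3 ± 3.87 CPM in NC, and NID2 23.7 ± 2.52 and 9.30 ± 2.45 CPM. COL7A1, the collagen of anchoring fibrils, which bind laminin-332 in skin, averaged 146 ± 8.09 CPM in OE_CD51_ICD and 12.2 ± 0.921 CPM in NC. COL4A1, COL4A4 and the collagen-binding glycoprotein gene SPARC had log2 fold changes of 2.28, 2.0 and 1.85. AGRN, which encodes a proteoglycan that binds laminins and dystroglycan, and FBLN2 were the lower members. AGRN fell by 0.28 on the log2 scale but stood at 0.03 with the GC trend removed, where it was not called (adjusted p = 0.760, edgeR; 6.48e-06 to 0.760 over its alternatives). FBLN2 lost its call under 7 of 19 alternatives.

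Of 12 genes for proteases that act on laminins or other matrix, or that activate such proteases, 7 were tested. Of these, 5 rose, 1 fell and 1 did not pass, against 25.2% higher and 25.8% lower over all genes tested. Their median log2 fold change was 0.88, beside 0.01 over all genes. This list too was chosen with earlier results known. BMP1 and TLL1 encode related proteases, and the BMP1 product trims laminin-332 chains and procollagens. BMP1 averaged 387 ± 18.7 CPM in OE_CD51_ICD and 210 ± 1.13 CPM in NC, and TLL1 16.9 ± 3.04 and 7.46 ± 0.813 CPM. PLAU, a plasminogen activator gene, and MMP2 had log2 fold changes of 2.95 and 2.85, and ADAMTS2, a procollagen protease, fell by 1.0 on the log2 scale. PLG, the plasminogen gene of the same list, had 1 count over OE_CD51_ICD and 0 over NC. Netrins share domains with laminin short arms. Of all genes tested 25.8% were called lower, and of 7 netrin and laminin-related genes 2 were tested. Both fell, NTNG1 to 3.82 ± 0.465 CPM in OE_CD51_ICD, against 12.2 ± 0.518 CPM in NC, and NTN4, whose product disrupts laminin polymers, to 16.3 ± 1.47 CPM in OE_CD51_ICD, against 24.1 ± 1.14 CPM in NC.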

How the data were processed

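Gene expression was measured in 6 ARPE-19 libraries, 3 OE_CD51_ICD and 3 NC, grouped by their titles. The authors deposited whole-number gene counts, raw per gene, and FPKM values for the same 58735 genes. Tested on the files, each FPKM was the count over the deposited gene length and a constant per library, 0.961 to 1.05 times its total count. The submitters' processing notes name hg38. Aligner, counter and strand setting were not given in the sources used here. Per the labels' protocols, RNA was taken with TRNzol or a column kit and libraries were made with a SMARTER mRNA kit.

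The count test was that of edgeR 4.0.16, run in R 4.3.3 (filterByExpr, TMM, quasi-likelihood F test, two-sided, Benjamini-Hochberg over 13787 genes), and standard errors were derived from the F statistic. The script was tested on simulated data. Alternatives were other scalings and filters, DESeq2 1.42.0, limma 3.58.1 (voom, and log2 of FPKM plus 1 or 0.1), protein-coding genes only, each replicate left out, the replicate number as a block, and loess removal of GC or gene length trends, with GC content from the longest GENCODE 29 transcript. Trimers, chain ratios and chain shares were computed from FPKM. The trimers and some of the ratios were also computed with the longest coding GENCODE 29 transcript as length. Promoter letters came from RefSeq.

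The members and lists were chosen with earlier results of these data known. Some genes, and results that rest on them, are not reported here, and list counts leave them out. The other laminin chains and ITGAV were named, with, from each companion list, the called genes of largest fold change, up to 4 in the more frequent direction and up to 2 in the opposite one, and the 3 genes nearest LAMC1. ITGA3, ITGA6, ITGB4, BCAM, CD151, SGCB, SGCE, RPSA, DAG1, NID1, NID2, PLG and the marker genes named were picked with their values in view. Calls of ITGB4, BCAM, CD151, SGCB, SGCE and RPSA were not followed over the alternatives. Tables and plots used Python 3.11.15, pandas 2.3.3 and matplotlib 3.10.9.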

Additional observations from a re-analysis of the deposited data

How the results depend on the processing

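Over 19 alternatives, LAMB1, LAMC1, LAMB3 and LAMA3 kept their direction and stayed past the threshold. LAMB2 lost its call only with the GC trend removed, and LAMA5 only with the gene length trend removed; the cause was not tested. LAMA4 was past the threshold in none. Genes called numbered 3469 higher and 3559 lower, against 2896 and 4051 under scaling by library size alone, and 2936 to 3654 in either direction with a replicate left out. AGRN changed sign, to 0.025 on the log2 scale, with the GC trend removed. FBLN2 lost its call without NC replicate 2 (edgeR adjusted p = 0.0908), NC replicate 3 (0.151), or OE_CD51_ICD replicate 1 (0.0560) or 2 (0.137), and B3GALNT2 without OE_CD51_ICD replicate 1 (0.176) or any NC replicate (0.0684 to 0.0822). POMT1 lost it without NC replicate 1 (0.145) or 3 (0.112), or OE_CD51_ICD replicate 1 (0.179) or 2 (0.107). Numbered replicates did not deviate together (correlations -0.066, 0.0053 and 0.066); with the replicate number as a block, 3437 genes were higher and 3552 lower, and no call of a laminin chain changed. At this depth LAMA2, LAMB4 and LAMC3 could not be compared, and each replicate left out leaves 2 libraries in a group.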
